A study of Mus musculus with 24 samples.

Results

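The effect of P16 overexpression was examined in the Cd31+ endothelial cells of mouse liver, with the 6 of 24 libraries that carried either the P16 construct (replicates 2, 3 and 5) or the empty vector (replicates 1, 2 and 5) in this population, chosen by these labels alone. Cd31+ cells were taken with antibody-coated magnetic beads from livers of C57BL/6 mice of 3 months, described in the methods as female, and were cultured and transduced with lentivirus. The construct was P16 cDNA in the pLenti-C-mGFP-P2A-Puro backbone, and the same backbone with no insert served as control, so both groups had been exposed to virus, GFP and the resistance gene. The genotype of the mice was not altered, the cDNA is not driven by an endothelial promoter, and RNA was taken 1 week after transduction. Whether the 3 libraries of a group came from 3 separate mice is not stated. Sex-linked transcripts, given below, differed between number 5 and the other libraries of each group. The p-values therefore measure the spread between these libraries, part of which may be technical.

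P16Ink4a, encoded by Cdkn2a, binds CDK4 and CDK6 and keeps them from pairing with D-type cyclins. Without that kinase activity the retinoblastoma family stays bound to E2F factors, which hold back genes for DNA synthesis, and the DREAM complex holds back genes for mitosis through a promoter element called CHR, often beside CCAAT boxes. Prolonged arrest of this kind, senescence, is known for a secretome of cytokines, proteases and growth factor binding proteins.

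The 6 libraries held 17817940 to 23196881 counted reads. Levels are given as CPM, counts relative to the library total, after trimmed-mean scaling (TMM), and fold changes are log2 values of P16 over empty vector with their standard error (SE), from edgeR's quasi-likelihood test over the 6 libraries. A gene was called at an unadjusted p under 0.05, the threshold the study used, and adjusted p-values are Benjamini-Hochberg values over all 14565 genes tested. Of these, 211 were called higher (1.45%) and 333 lower (2.29%). In this fit, which leaves out any pairing of libraries, the total of 544 was below the 728.2 that this threshold gives by itself. No gene in it reached an adjusted p under 0.05 (smallest 0.947). DESeq2's Wald test gave 4 such genes. The calls below are therefore descriptions of single genes, and the counts over lists are read against these percentages.

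The libraries differed in ways the construct does not label. In empty vector 5 and P16 5 Xist stood at 742 and 647 CPM and the Y-linked Ddx3y at 0, whereas in the other 4 libraries Xist was at most 0.193 CPM and Ddx3y between 50.9 and 127 CPM. Hence 1 library of 3 in each group had the transcript pattern of female cells and 2 did not, although the methods name female mice. Replicate numbers marked this and other differences: after subtraction of group means, libraries of the same number in the 12 Cd31+ libraries correlated in all 13 pairs (r between 0.367 and 0.729), and the numbers were taken to pair the samples. A fit with the replicate number as a block was therefore set beside the results. Within the 6 libraries it rests on the pairs numbered 2 and 5 and has 1 residual degree of freedom. With all 12 Cd31+ libraries, silencing libraries included, it has 5. The block called 1163 genes in 6 libraries and 1766 in 12, above the 728.2 and 771.3 that the threshold gives by itself.

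The endothelial label was only partly borne out by defining markers. Pecam1, which encodes Cd31, was at 86.6, 96.4 and 252 CPM with empty vector and at 142, 160 and 284 CPM with P16, and Cdh5, vascular endothelial cadherin, at 55.9 to 251 CPM. Eng was at 98.8 to 635 CPM and Mcam at 78.0 to 395 CPM. Cldn5 and Sox17 were at most 0.222 CPM. Sinusoidal genes were mixed: Clec4g and Dnase1l3 were at most 0.193 CPM, Stab2 at most 0.774 and Lyve1 at most 2.97 CPM. Stab1 was at 4.01 to 197 CPM and Gata4 at 79.8 to 144 CPM. Fn1 (fibronectin) and Col1a1 (collagen) took the most reads of all genes, and Acta2 (smooth muscle actin) reached 2592 to 4298 CPM. Of 18 tested endothelial markers 17 had a value above 0, with none called and a median log2 fold change of 0.47. This median was -0.12 with P16 5 left out and 1.62 with empty vector 5 left out. The summed level of all 20 was 675 to 2139 CPM with empty vector and 957 to 2672 CPM with P16, highest in the number 5 library of each group. Summed mesothelial markers ran from 492 to 718 and from 752 to 1015 CPM, so these sums did not overlap. By the mean of log2(CPM + 1) the groups overlapped, at 5.30 to 6.48 with empty vector and 5.65 to 6.74 with P16. Upk1b was the 1 of 6 called higher, and Wt1 (-0.64) and Lrrn4 (-0.45) had log2 fold changes below 0. Whether these marker levels bear on the results below was not tested. Mesenchymal markers summed to 18650 to 35260 and 18830 to 28900 CPM, and macrophage markers to 62.6 to 178 and 68.6 to 234 CPM. Of 16 mesenchymal, 14 macrophage, 10 sinusoidal, 4 cholangiocyte and 4 hepatocyte markers tested none was called, and no lymphoid marker passed the filter on low counts. Fewer cells of a type and less RNA per cell cannot be told apart in such bulk libraries.

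Cdkn2a, which the deposited table places at 89192708 to 89212890 of chromosome 4 (minus strand), checked the construct. It was at 56.5, 31.96 and 80.1 CPM in empty vector 1, 2 and 5 and at 217, 326 and 139 CPM in P16 2, 3 and 5. All P16 libraries lay above all empty vector libraries. The means were 56.2 ± 24.1 and 227 ± 94.0 CPM (SD, n = 3), a log2 fold change of 2.02 (SE 0.43, unadjusted p = 0.0031, adjusted p = 0.947 by edgeR), and an exact two-sided permutation test over the libraries gave p = 0.1, the smallest that 3 against 3 allows. With the replicate block in the 6 libraries the log2 fold change was 1.77 (adjusted p = 1.2e-07), and with DESeq2's Wald test the adjusted p was 0.0037. The increase differed between the pairs, 6.80-fold for number 2 and 1.73-fold for number 5. Reads from the construct and from the mouse gene, and from P16Ink4a and the Arf transcript of the same locus, were not separated in this count. Per length, by the FPKM the authors deposited, Cdkn2a was at 27.1 to 68.3 with empty vector and 118 to 276 with P16, beside 70.0 to 100 for Cdk4 and 5.64 to 8.70 for Cdk6 over all 6 libraries, and Cdkn2a was above both kinases in every P16 library.

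**Figure D1:**
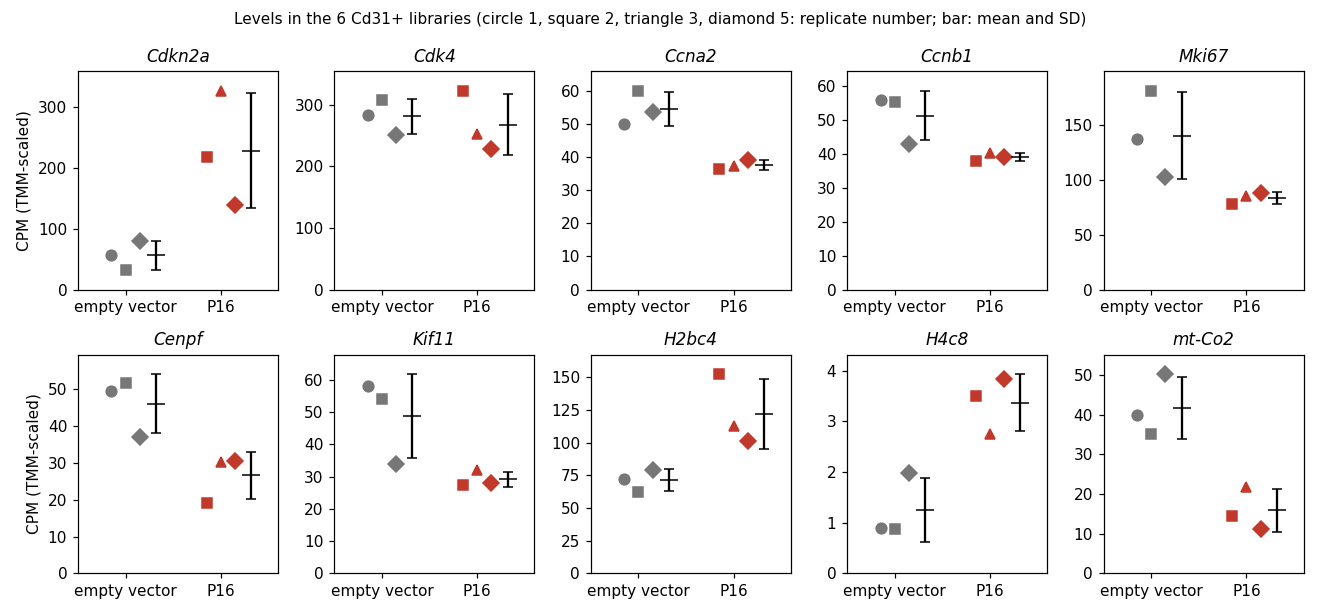
CPM of 10 genes in each of the 6 Cd31+ libraries, grey for empty vector and red for P16, with symbol shape for the replicate number and a black bar for the mean and SD (n = 3). Cdkn2a rises from a mean of 56.2 to 227 CPM, Ccna2, Ccnb1, Mki67, Cenpf and Kif11 lie lower in all 3 P16 libraries, and Cdk4 overlaps between the groups.

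The direct partners of P16 did not pass the test. Cdk4 was at 284, 308 and 252 CPM with empty vector and 323, 253 and 228 CPM with P16 (log2 fold change -0.07, SE 0.17), and Cdk6 at 93.0 to 122 and 78.3 to 116 CPM (-0.01, SE 0.20). Ccnd1, the cyclin that activates both kinases, was at 308, 467 and 322 CPM with empty vector and 446, 612 and 432 CPM with P16 (0.44, SE 0.22, unadjusted p = 0.090 by edgeR). Rb1 (-0.12, SE 0.23) and E2f1 (0.04, SE 0.13) overlapped between the groups. Of the 20 tested genes of the retinoblastoma, E2F and DREAM list none was called, and 15 had a value below 0 (median -0.12).

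Among 6 tested CDK inhibitors, Cdkn2a was called higher and Cdkn1b lower. Cdkn1b, which encodes p27 and restrains CDK2, was at 79.7, 81.2 and 70.8 CPM with empty vector and at 52.1, 60.9 and 62.1 CPM with P16 (log2 fold change -0.40, SE 0.12, unadjusted p = 0.014 by edgeR). Cdkn1a, the p21 gene induced by p53, overlapped between the groups (368 to 543 CPM, log2 fold change -0.03). Of 28 p53 targets none was called (median -0.001), beside 3 called lower and 1 higher with the replicate block and 12 libraries, a fit that called 5.46% of all genes lower and 5.98% higher.

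Cyclins of later phases were lower. Ccna2, the cyclin of S and G2 phase, was at 49.9, 60.0 and 53.4 CPM with empty vector and at 36.3, 37.4 and 39.1 CPM with P16, a log2 fold change of -0.53 (SE 0.12, unadjusted p = 0.0026 by edgeR). Ccnb1, the mitotic cyclin, was at 55.9, 55.1 and 42.8 CPM and at 37.9, 40.2 and 39.2 CPM (-0.39, SE 0.14, unadjusted p = 0.025 by edgeR). For both genes the groups did not overlap. These were the only 2 of 15 cyclins and CDKs called, and Cdk1, the kinase of both, was not (58.2 to 79.5 against 53.3 to 69.9 CPM). With the replicate block in 12 libraries Ccna2 stayed below 0 with unadjusted p = 0.0011, and Ccnb1 had unadjusted p = 0.069.

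Genes of mitosis made up the clearest group. Of the 74 genes listed, all tested, 28 were called lower and 1 higher, where 2.29% of all genes were called lower, and 71 had a value below 0 (median -0.35, against 0.01 over all genes tested). The groups did not overlap for 35 of them with P16 lower and for 1 with P16 higher, where 5.95% of all genes separated as lower and 4.88% as higher. None reached an adjusted p under 0.05. Mki67, the marker of cycling cells, was at 137, 182 and 102 CPM with empty vector and at 78.0, 85.1 and 88.4 CPM with P16 (log2 fold change -0.74, SE 0.21, unadjusted p = 0.010 by edgeR). Smc4, a condensin subunit, was at 111, 153 and 123 CPM and at 93.2, 86.2 and 88.2 CPM (-0.53, SE 0.15). Cenpf, a kinetochore protein, was at 49.4, 51.7 and 36.9 CPM and at 19.0, 30.2 and 30.4 CPM (-0.79, SE 0.23). In each of these the lowest empty vector library lay above the highest P16 library.

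Motor, kinase and cytokinesis genes were lower as well. Kif11, the kinesin that separates spindle poles, was at 58.2, 54.0 and 34.0 CPM with empty vector and at 27.4, 31.9 and 28.1 CPM with P16 (log2 fold change -0.74, SE 0.21). Melk, a mitotic kinase, was at 15.4 to 18.9 and 11.3 to 12.2 CPM (-0.51, SE 0.15). Mastl, the Greatwall kinase that keeps mitotic phosphates in place, was at 15.4, 20.02 and 14.97 CPM and at 10.01, 12.7 and 9.73 CPM (-0.63, SE 0.19, unadjusted p = 0.013 by edgeR). Further genes called lower were Ect2 and Anln (cytokinesis), Cenpe and Ndc80 (kinetochore), Nusap1 and Prc1 (spindle) and Top2a (decatenation), with log2 fold changes between -0.61 and -0.37. The gene called higher was Pttg1, securin, at 10.5 to 12.8 and 14.1 to 18.5 CPM (0.42). Zwint, a kinetochore protein, was not called (128 to 156 against 140 to 167 CPM).

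The mitosis list was lower within both numbered pairs. Between P16 2 and empty vector 2 its 74 genes had a median difference of -0.47 on the log2(CPM + 1) scale with 70 below 0, and between P16 5 and empty vector 5 one of -0.14 with 64 below 0. The replicate block in 12 libraries, which called 5.98% of 15426 genes higher and 5.46% lower, called 37 of the list lower and none higher. The block in 6 libraries, which called 3.73% of all genes higher and 4.25% lower, called 22 lower, of which Cenpf reached an adjusted p of 0.033. With empty vector 1 left out 13 were called lower (0.958% of all genes), with empty vector 2 left out 6 (0.589%), with P16 2 left out 15 (1.78%) and with empty vector 5 left out 40 (3.52%), and in each of these fits at least 70 of 74 stayed below 0. The number called therefore moved with single libraries, empty vector 2 most of all, whereas the sign did not.

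**Figure D2:**
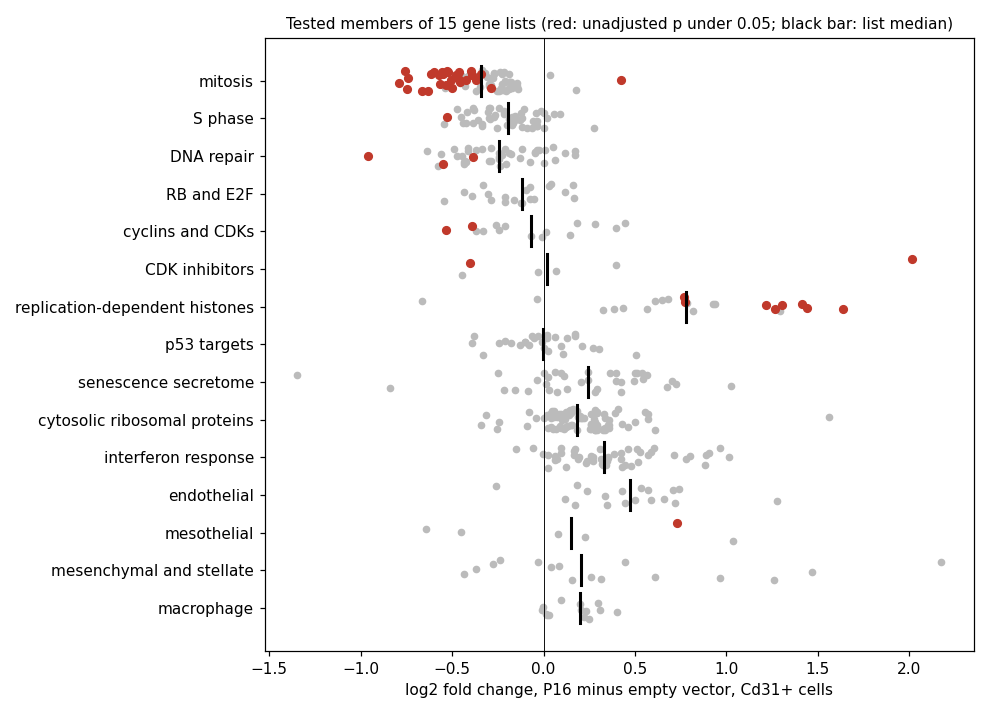
Log2 fold change of each tested gene in 15 lists, P16 minus empty vector, with genes called at an unadjusted p under 0.05 in red and the median of each list as a black bar. Mitosis (median -0.35, 28 called lower) lies left of 0, the replication-dependent histones (median 0.78, 8 called higher) lie right of it, and the p53 targets centre on 0.

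DNA synthesis and repair genes leaned the same way with few calls, where 2.29% of all genes were called lower. Of 52 S phase genes 46 had a value below 0 (median -0.20, between -0.33 without empty vector 5 and -0.10 without P16 5), and Pola1, the catalytic subunit of DNA polymerase alpha, was the only one called, at 26.7, 24.8 and 19.8 CPM with empty vector and 13.2, 19.6 and 16.7 CPM with P16 (log2 fold change -0.53, SE 0.20). Rrm1, a ribonucleotide reductase subunit, overlapped (262 to 319 against 233 to 310 CPM). With empty vector 5 left out 12 S phase genes were called lower, against 3.52% of all genes. With the replicate block and 12 libraries 15 were called lower and 1 higher, against 5.46% and 5.98% of all genes. Of 43 DNA repair genes 36 had a value below 0 (median -0.25), and 3 were called lower. Without empty vector 5, 7 were called lower (3.52% of all genes), and without empty vector 2 none (0.589%). The 3 were Rad54b, a recombination translocase (3.58 to 6.53 against 1.92 to 2.67 CPM, log2 fold change -0.96), Mms22l, which acts at stalled forks (-0.39), and Fancd2 of the Fanconi pathway (-0.55). The S phase and repair lists held no gene called higher.

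Replication-dependent histone genes went the opposite way. They are made in S phase with the genome and their mRNAs normally end in a stem-loop with no poly(A) tail, whereas these libraries were made from RNA bound to poly-T beads. Of 64 listed 22 passed the filter, 8 were called higher, where 1.45% of all genes were, and 20 had a value above 0 (median log2 fold change 0.78). Because the filter keeps a gene that is high in one group, no count over these 22 bears on the 42 that did not pass. With every gene of at least 1 count kept, 56 were tested, 45 were above 0 and 13 were called higher, where 1.65% of all genes were. H2bc4, which also has polyadenylated transcripts, was at 71.8, 62.4 and 79.1 CPM with empty vector and 152, 112 and 101 CPM with P16 (0.78, SE 0.19, unadjusted p = 0.0045 by edgeR). H3c4 was at 0.995, 1.26 and 1.49 CPM and 3.61, 2.69 and 2.72 CPM (1.26, SE 0.32), and H4c8 at 0.896, 0.870 and 1.99 CPM and 3.51, 2.74 and 3.84 CPM (1.42, SE 0.42). The groups did not overlap for these 3 genes, but 20 of the 22 had a mean under 10 CPM in both groups, and histone copies of near-identical sequence may share reads. H1f2, a linker histone, was at 124 to 180 and 152 to 281 CPM and was not called (0.56).

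The promoters of the mitosis and histone genes are shown because the members of each list moved together. They cover 250 bases before to 50 after the start site, from RefSeq on GRCm38.p6, for the 4 of the 5 mitosis genes with the smallest p that have an entry and for 2 histone genes. Capitals mark the CHR words TTTGAA and TTCGAA, the CCAAT box and the E2F words TTTCGCGC, TTTGGCGC, TTTCCCGC and TTTGCCGC, on either strand; none of these words contains another.
Mki67, chr7:135716330-135716629, minus strand: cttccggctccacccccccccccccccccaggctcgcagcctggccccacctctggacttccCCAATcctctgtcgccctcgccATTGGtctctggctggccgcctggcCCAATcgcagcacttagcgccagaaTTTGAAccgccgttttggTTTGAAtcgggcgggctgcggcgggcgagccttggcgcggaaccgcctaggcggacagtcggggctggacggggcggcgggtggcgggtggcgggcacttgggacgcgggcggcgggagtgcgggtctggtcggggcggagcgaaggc
Cenpf, chr1:189688037-189688336, minus strand: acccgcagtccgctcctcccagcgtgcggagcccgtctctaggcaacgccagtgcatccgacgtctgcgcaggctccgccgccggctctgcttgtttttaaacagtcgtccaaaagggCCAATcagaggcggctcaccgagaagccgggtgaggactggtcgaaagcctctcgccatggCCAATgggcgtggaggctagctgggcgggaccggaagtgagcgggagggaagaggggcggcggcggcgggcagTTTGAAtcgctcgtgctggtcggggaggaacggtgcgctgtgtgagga
Kif11, chr19:37376132-37376431, plus strand: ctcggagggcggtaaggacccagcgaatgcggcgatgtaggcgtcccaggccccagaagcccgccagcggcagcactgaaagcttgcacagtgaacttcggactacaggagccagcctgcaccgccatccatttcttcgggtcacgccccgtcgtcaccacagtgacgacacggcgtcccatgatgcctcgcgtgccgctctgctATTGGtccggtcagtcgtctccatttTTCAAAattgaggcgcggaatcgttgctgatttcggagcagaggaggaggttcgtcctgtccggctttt
Melk, chr4:44300667-44300966, plus strand: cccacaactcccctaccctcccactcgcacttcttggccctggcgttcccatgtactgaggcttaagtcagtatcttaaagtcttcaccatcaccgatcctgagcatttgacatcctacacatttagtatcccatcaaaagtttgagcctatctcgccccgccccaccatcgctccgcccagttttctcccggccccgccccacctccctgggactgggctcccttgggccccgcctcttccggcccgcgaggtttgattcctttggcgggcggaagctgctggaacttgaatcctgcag
H3c4, chr13:23575513-23575812, plus strand: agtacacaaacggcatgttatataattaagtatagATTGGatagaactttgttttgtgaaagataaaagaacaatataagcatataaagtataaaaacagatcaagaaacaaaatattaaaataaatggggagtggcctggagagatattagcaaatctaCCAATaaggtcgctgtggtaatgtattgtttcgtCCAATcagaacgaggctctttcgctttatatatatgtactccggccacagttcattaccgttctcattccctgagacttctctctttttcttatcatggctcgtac
H4c8, chr13:23530794-23531093, plus strand: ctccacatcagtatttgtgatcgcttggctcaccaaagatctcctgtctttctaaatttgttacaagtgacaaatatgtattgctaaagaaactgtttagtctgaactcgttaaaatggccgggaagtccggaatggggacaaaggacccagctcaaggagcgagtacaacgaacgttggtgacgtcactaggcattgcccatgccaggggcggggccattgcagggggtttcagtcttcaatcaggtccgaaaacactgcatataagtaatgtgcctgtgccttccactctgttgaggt

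Mki67 held 2 CHR words and 3 CCAAT boxes, Cenpf 1 and 2, and Kif11 1 and 1, while Melk held neither. H3c4 had 3 CCAAT boxes and H4c8 no marked word. Of the 26 genes of mitosis called lower that have a promoter entry 20 (76.9%) held a CHR word and 20 a CCAAT box, against 21.7% and 41.1% of 27025 genes in the table. Over the whole list the shares were 75% and 71.9% of 64 genes. The histone list, which moved the opposite way, also had shares above those of all genes. Of its 57 genes with an entry 47.4% held a CHR word and 86% a CCAAT box. Among the 7 called higher with an entry the shares were 42.9% and 71.4%. Of 41 S phase genes with an entry 17.1% held a CHR word, 58.5% a CCAAT box and 39.0% an E2F word. E2F words were also held by 9.38% of the mitosis list and 17.5% of the histone list, against 2.60% of all genes. Among mitosis genes called lower the E2F share was 3.85%, and among histone genes called higher it was 0%. A word match is a description of letters and not of a bound site.

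Levels moved with the length of a gene, to a degree that differed between libraries. Among 9105 protein-coding genes above 10 CPM the log2 fold change fell with exonic length (Spearman's rho -0.45 across genes, which share the same 6 libraries), and rho was -0.17 with P16 2 left out. Genes of up to 1000 bases had medians of 0.58, -0.02 and 0.20 in P16 2, 3 and 5 relative to the mean of empty vector, and genes over 8000 bases -0.34, -0.05 and -0.06. In empty vector 1, 2 and 5 the same medians were -0.04, -0.08 and 0.13 for the short genes and 0.04, 0.06 and -0.09 for the long ones. The trend was steepest in P16 2, similar in P16 5 and empty vector 5, and nearly absent in P16 3. Ribosomal RNA also differed between libraries: Rn18s-rs5 was at 3204, 5744 and 2447 CPM with empty vector and 12430, 4528 and 11480 CPM with P16. It did not follow the length trend throughout, being high in P16 5 and lowest in empty vector 5, whose trends were similar. Short genes such as Ost4, of the oligosaccharyltransferase (45.6, 37.6 and 46.9 against 109, 51.4 and 78.1 CPM), and Gpx1, a glutathione peroxidase (21.4, 20.3 and 28.7 against 51.8, 23.3 and 49.6 CPM), were called higher. The tested histone genes have a median exonic length of 735 bases, the mitosis genes one of 5048, and all genes tested one of 4177.

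When each library's trend on length was taken out, an alternative chosen after the trend was seen, the mitosis and histone results were as large. The removal was partial. Over the 9105 genes rho was still -0.09, and genes of up to 1000 bases kept a median log2 fold change of 0.14, against 0.28 before. The histones, at a median of 735 bases, fall in this class, so their value after removal may still hold part of the trend. The mitosis list had 32 called lower, where this fit called 2.92% of all genes lower, 71 below 0 and a median of -0.35. The histones had 8 called higher, where 1.19% of all genes were, and a median of 0.77. With the length trend removed and the replicate block in 12 libraries 43 genes of mitosis were called lower, against 6.03% of all genes, and 15 of 33 histones higher, against 6.24%. The cytosolic ribosomal proteins, short and abundant, had a median of 0.18 with 76 of 84 above 0 and none called. The median was -0.13 with P16 2 left out, and their level was 0.58 above the empty vector mean in P16 2 but 0.28 below it in P16 3.

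**Figure D3:**
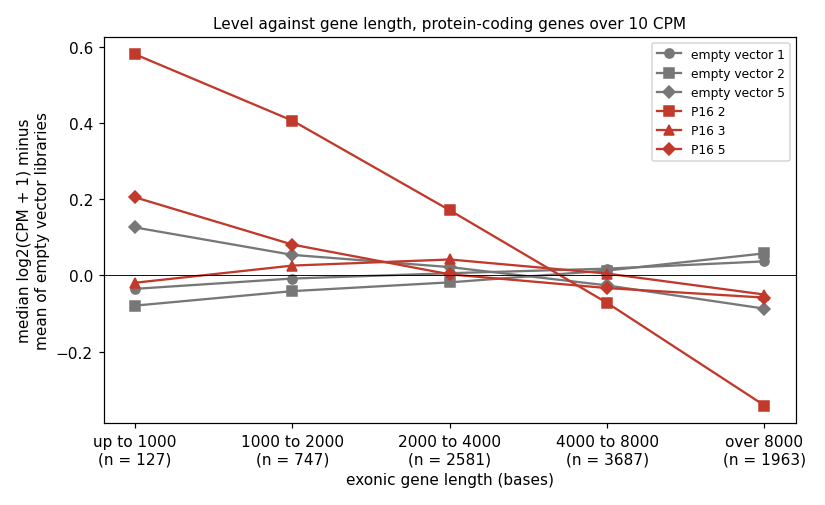
Median log2(CPM + 1) of protein-coding genes above 10 CPM in 5 classes of exonic length, each library relative to the mean of the 3 empty vector libraries (grey, empty vector; red, P16). P16 2 runs from 0.58 for the shortest genes to -0.34 for the longest, and P16 3 stays within 0.05 of 0.

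Secretome genes did not pass the test. Of 48 listed 36 were tested and none was called, although 29 had a value above 0 (median 0.24, and 0.11 with P16 5 left out). Timp2, a metalloproteinase inhibitor, was at 2488, 2408 and 2414 CPM with empty vector and 3043, 3728 and 2833 CPM with P16 (log2 fold change 0.39, SE 0.17, unadjusted p = 0.050 by edgeR), and was the only one of the 36 whose groups did not overlap. The replicate block in 6 libraries called 10 higher, where it called 3.73% of all genes higher, and none lower, and 4 of them, Igfbp2, Ccl7, Gdf15 and Spp1, reached an adjusted p under 0.05. Igfbp2, a carrier of insulin-like growth factors, was at 22.6, 20.8 and 292 CPM with empty vector and 82.2, 79.2 and 394 CPM with P16, and Spp1, osteopontin, was at 571, 43.7 and 27.2 CPM and 120, 102 and 30.4 CPM. In the unblocked fit the log2 fold change of Spp1 was -1.349 and with the block 0.82. The block in 12 libraries also called 10 secretome genes higher, against 5.98% of all genes, with none at an adjusted p under 0.05.

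The RT-PCR list, picked by the study from its own samples, is not independent evidence. Of its 39 genes 30 passed the filter, and of these Mafk was called higher and Mastl lower. Mafk, a small Maf partner of stress regulators, was at 85.4, 85.3 and 88.0 CPM with empty vector and 111, 114 and 101 CPM with P16 (log2 fold change 0.33, SE 0.11, unadjusted p = 0.017 by edgeR). Anapc2, a subunit of the anaphase promoting complex (0.15), Fos, an immediate early gene (0.66, SE 0.67), and Vegfa, the vascular growth factor (-0.22), were not called. Mmp7 was listed at 0 in all 6 libraries, under the 3 counts taken as floor. Tnf was at most 0.167 CPM, near that floor, and did not pass the filter on low counts. Of 34 tested angiogenesis and migration genes 1 was called lower, where 2.29% of all genes were. This was Itgb3, the integrin beta 3 chain (40.9 to 67.5 against 34.4 to 40.0 CPM, unadjusted p = 0.049 by edgeR). It lost the call in 11 of 17 alternatives. With the replicate block in 6 and 12 libraries its unadjusted p was 0.18 and 0.27 by edgeR. In the interferon response 47 of 50 were above 0 and none was called, and the median of 0.33 became -0.41 with P16 5 left out and 0.03 with empty vector 1 left out.

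The other genes of smallest p with separated groups, taken over all genes tested, had varied functions. Called higher were Polr2j (an RNA polymerase II subunit, log2 fold change 0.62), Casq1 (calsequestrin, 1.67, at 0.290 to 0.484 against 1.14 to 1.24 CPM), Lncpint (a long non-coding RNA, 1.79), Gnas (the stimulatory G protein alpha subunit, 0.56), H2aj (an H2A variant, 0.69), Upk1b (uroplakin, 217, 218 and 289 against 414, 468 and 318 CPM, 0.73) and Kctd2 (0.42). Called lower were Mex3b (an RNA-binding protein, 27.2, 24.6 and 17.3 against 13.2, 10.6 and 11.6 CPM, -0.97), Zfp62 and Zfp292 (zinc finger proteins, -0.61 and -0.71), Cip2a (an inhibitor of phosphatase 2A, -0.66), Tut4 (a uridylyltransferase, -0.55), Dbf4 (the activator of the replication kinase Cdc7, -0.45) and Pogk (-0.56). Of these Cip2a, H2aj, Zfp292 and Lncpint reached adjusted p-values between 0.036 and 0.049 with the replicate block in 6 libraries. That fit gave 92 genes at an adjusted p under 0.05, 61 higher and 31 lower, of which 62 were protein-coding, 26 pseudogenes and 40 also called without the block. In 12 libraries the block left 1, a pseudogene.

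The smallest p among named genes was that of mt-Co2, subunit 2 of cytochrome oxidase, at 39.8, 35.1 and 50.1 CPM with empty vector and 14.5, 21.9 and 11.2 CPM with P16 (log2 fold change -1.39, SE 0.27, unadjusted p = 0.0015 by edgeR). Also lower were mt-Co3 (-1.05) and mt-Atp6 (-1.11), and these were the 3 of 12 mitochondrially encoded genes called. Their level is uncertain, because copies on chromosome 1 in the deposited table, Gm10925 (21.2, 19.7 and 23.7 against 8.93, 13.5 and 7.84 CPM) and Gm28661 (32.7, 30.3 and 36.1 against 11.97, 17.0 and 6.73 CPM), ran in the same order and may share their reads, which was not tested. mt-Co1, of the same enzyme, stood at 4553 to 5900 CPM and overlapped between the groups (0.04).

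The replicate block in 12 libraries brought other genes to the front. Tnfsf18, a TNF family ligand, was at 28.7, 13.1 and 29.4 CPM with empty vector and 28.5, 82.8 and 43.9 CPM with P16, with overlap between the groups (log2 fold change 0.96 with the block, unadjusted p = 1.8e-05 by edgeR). Among the 10 genes of smallest p called higher by this fit were also Myh11, smooth muscle myosin (1.20), Frmpd1 (1.21), Aldh1a1, a retinaldehyde dehydrogenase (0.62), Gpc4, a glypican (0.58), Fstl3, a follistatin-like inhibitor of activin (0.69), Lyz2, lysozyme of myeloid cells (0.77), Serpinb9b (0.70), Ptprq (0.65) and Foxc2, a forkhead factor of vessels (0.64). Of these 10, Foxc2 was also called without the block (18.2 to 29.9 against 30.5 to 44.7 CPM). Among the 10 called lower, mt-Co2, mt-Atp6, Zfp62 and Ets2, an ETS factor (-0.51), were also called without the block. The others were Cdsn (-0.63), Tenm4 (-1.20), Hecw2 (-0.68), Acot2 (-0.58), Zfp395 (-0.58) and Gstp2, which did not pass the filter in 6 libraries. None of the 20 had an adjusted p under 0.05.

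**Figure D4:**
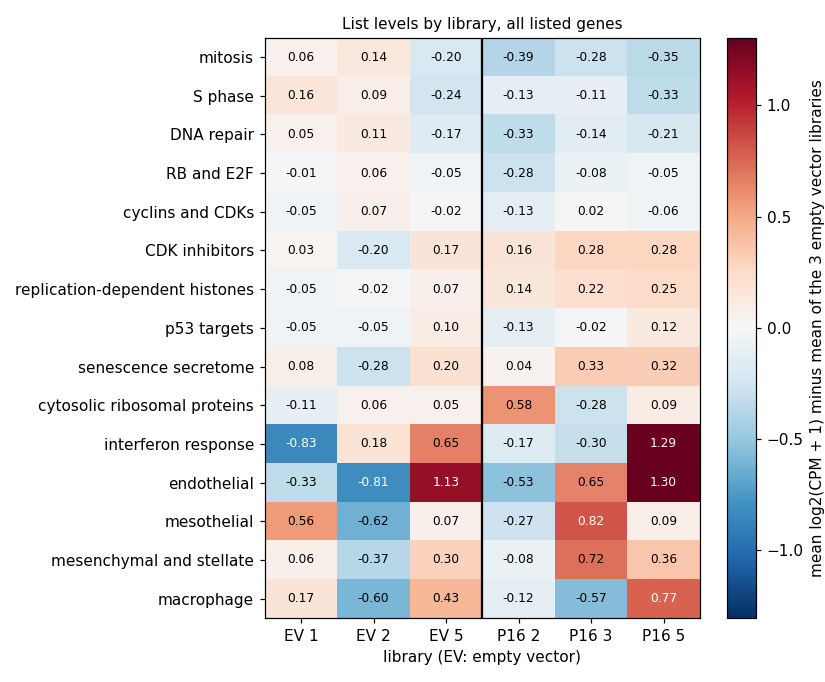
Mean log2(CPM + 1) over all genes of 15 lists in each library, relative to the mean of the 3 empty vector libraries (EV). Mitosis is at -0.39, -0.28 and -0.35 in P16 2, 3 and 5 and below every empty vector library, whereas endothelial, interferon and macrophage levels are highest in both number 5 libraries.

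The same comparison in Cd146+ cells, the sinusoidal population of the study, was used to ask whether the changes differed. That comparison called 1.55% of 14860 genes higher and 1.99% lower. Cdkn2a had a log2 fold change of 2.44 (SE 0.50) there and 2.02 in Cd31+ cells, with an unadjusted p of 0.56 for the difference in edgeR's fit over all 24 libraries. The mitosis list had 38 of 74 called lower and a median of -0.88 in Cd146+ cells, beside 28 and -0.35 in Cd31+ cells, and the S phase list 17 of 52 called lower and -0.53, beside 1 and -0.20. The difference between the populations was called for 3.82% of 16524 genes and, in the mitosis list, for 4 of 74, each with the higher value in Cd31+ cells. These were Cenpn, Spc25, Kif2c and Pttg1, the last of which was above 0 in Cd31+ cells (0.42) and below 0 in Cd146+ cells (-0.21). No gene had an adjusted p under 0.05 for this difference (631 had an unadjusted p under 0.05, DESeq2's Wald test gave 3 and the replicate block 13). For Mki67 the log2 fold changes were -0.74 (SE 0.21) and -1.26 (SE 0.40) with an unadjusted p of 0.36 for the difference, and for Ccna2 -0.53 (SE 0.12) and -1.03 (SE 0.41) with 0.32, by edgeR. Histones had medians above 0 in both (0.41 in Cd146+ cells, with 1 of 26 called higher).

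**Figure D5:**
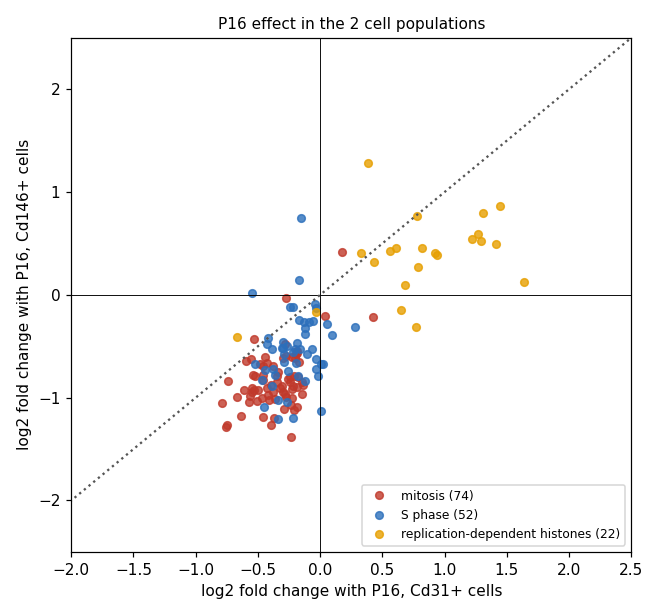
Log2 fold change with P16 in Cd31+ cells (x axis) and in Cd146+ cells (y axis) for the genes tested in both, from the mitosis, S phase and histone lists, with a dotted line of equal change. Mitosis genes lie, 3 excepted on the x axis and 1 on the y axis, below 0 on both axes and mostly under the line, their medians being -0.35 and -0.88.

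P16 silencing in the same Cd31+ population has its own control (nc shRNA). Against it the medians of the mitosis and S phase lists had opposite signs. P16 shRNA called 9.51% of 14358 genes higher and 10.3% lower, 9 of 74 genes of mitosis higher and none lower (median 0.19), and 21 of 52 S phase genes higher and none lower (median 0.30). The mitosis share called higher was thus near that of all genes. Of 15 cyclins and CDKs none was called higher and 3 lower (median 0.15), among them Ccnd1 (-1.445) and Ccnd2 (-0.74). The difference between the effects of overexpression and silencing was called for 10.8% of 15426 genes, and for 29 genes of mitosis and 20 of S phase with the overexpression effect lower. None of these reached an adjusted p under 0.05. Cdkn2a fell by 3.08 on the log2 scale with the shRNA, and its difference between overexpression and silencing had an adjusted p of 0.013 by edgeR.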

How the data were processed

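RNA sequencing counts of 6 Cd31+ libraries, 3 with empty vector and 3 with P16, were analysed, grouped by the sample labels. The deposited values are whole read counts for 56748 genes, without normalization. The authors also deposited FPKM, used only for levels per length, and columns of their own comparisons (group means, fold changes, p-values), not used. Per the labels, mRNA was bound to poly-T beads, and the submitters' processing notes name fastp and mm9. Only 2.83% of 52073 matched genes had the same coordinates in GENCODE vM21 (GRCm38), so coordinates are given as deposited, with no build. Whether counting used strand is not given in the sources used here. 

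With R 4.3.3 and edgeR 4.0.16, genes were kept by filterByExpr, scaled by TMM and fitted by glmQLFit (robust) over the 2 groups with no block, and tested two-sided. Alternatives were other filters, DESeq2 1.42.0 size factors and Wald test, all 12 Cd31+ libraries, replicate blocks, a term for sex-linked transcripts and each library left out. Removal of the length trend (a smoothing spline of 5 degrees of freedom on log2 exonic length, per library, as offsets) and the fit without both number 5 libraries were added after the data were seen. Same-number libraries of the 12 correlated with a median r of 0.597 (13 pairs) against -0.188 (41 pairs of different number). The scripts were tested on simulated counts.

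Named genes were Cdkn2a, CDK, cyclin, retinoblastoma and E2F genes, up to 5 genes of smallest p and the most abundant one per list, genes of the study, and the 10 of smallest p in each direction with separated groups and, separately, with the block in 12 libraries, without predicted genes and pseudogenes. Genes named beyond this rule, among them pseudogene copies and short genes, were chosen after their values were seen. Members and lists were chosen with earlier results of these data known. The floor of detection was set at 3 counts. Depth (17817940 to 23196881 counts) limits precision for genes near 1 CPM.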

Additional observations from a re-analysis of the deposited data

How the results depend on the processing

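Without the replicate block 544 genes were called at an unadjusted p under 0.05, 211 higher and 333 lower. The total was 1124 (540 and 584) with all genes of at least 1 count, 954 (390 and 564) with all 12 Cd31+ libraries, and 818 (395 higher) with a term for sex-linked transcripts. With the replicate block it was 1163 (544 and 619) in 6 libraries, 1766 (923 and 843) in 12, and 1893 (963 and 930) in 12 with the length trend removed. Without both number 5 libraries 363 were higher. Leaving out 1 library gave 189 (without empty vector 2) to 1037 (without empty vector 5) in total, 78 to 511 higher and 89 to 526 lower. Genes at an adjusted p under 0.05, 0 in edgeR's fit, numbered 10 with all genes of at least 1 count, 4 with DESeq2's Wald test, 92 and 1 with the block in 6 and 12 libraries, and 4 with the block and the length trend removed. The 631 genes whose effect differed between populations became 414 with the block and 359 to 867 when 1 library was left out, and 3 (Wald) and 13 (block) reached an adjusted p under 0.05. The 1662 genes that differed between overexpression and silencing became 3294 with the block and 1283 to 1957 when 1 library was left out. At an adjusted p under 0.05, 33 became 304 (Wald), 842 (block) and 8 to 40 when 1 library was left out. The causes were not tested.

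The log2 fold change of Cdkn2a stayed between 1.66 and 2.62 in 17 alternatives, each with an unadjusted p under 0.05. Of 952 values for 56 genes under these alternatives, 811 kept sign and call, 79 lost the call, 39 gained it and 23 changed sign, all in genes not called. Cdk6 was at 0.01 and 0.12 with the block in 6 and 12 libraries, 0.12 with the length trend removed, 0.28 with the block added, and between -0.106 and 0.15 when 1 library was left out. E2f1 was at -0.012 and -0.02 with the block, -0.042 with the length trend removed, -0.082 with the block added, and between -0.036 and 0.132 when 1 library was left out. Cdkn1a was at 0.006 and Fos at -0.047 with the block in 6 libraries, and mt-Co1 at -0.106 with the length trend removed. When 1 library was left out Cdkn1a lay between -0.142 and 0.117, Cdk4 between -0.23 and 0.033, Rb1 between -0.307 and 0.058 and mt-Co1 between -0.052 and 0.135. Genes near 1 CPM are limited by depth.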

Other observations

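In the list of cholesterol and fatty acid synthesis 23 of 25 tested genes had a log2 fold change below 0 (median -0.24, but -0.01 with P16 2 left out and -0.52 with P16 5 left out), and Scd2, a stearoyl-CoA desaturase, was the 1 gene called lower. Its groups did not overlap. Of 19 immediate early genes, 12 genes of the unfolded protein and amino acid stress response and 5 genes of senescence structure none was called. Macrophage markers, with a median of 0.20 and none of 14 called, had 9 called higher with the replicate block in 6 libraries (3.73% of all genes) and 6 with the block in 12 (5.98%). Their median was 0.66 and 0.61 with these blocks, -0.20 with empty vector 2 left out and -0.68 with P16 5 left out.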
